A study of Mus musculus with 9 samples.

Results

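The genes described here are 10 transcription factors of the neural crest and of the Schwann cell lineage: Sox10, Foxd3, Tfap2a, Pax3, Sox2, Sox9, Egr2, Pou3f1, Zeb2 and Snai2. They were chosen by name, with earlier results of these data known. All 10 were found by symbol among the 56289 genes of the deposited expression table. RNA was sequenced from mouse cultures labelled as RAW264.7, a single macrophage-like line that the labels assign to the strain BALB/c, in order to compare gene expression between untreated, stimulated and drug-treated cells. There were 3 libraries in each of 3 groups. Con was untreated, TNF-α received 20 ng/ml of tumour necrosis factor α for 24 h, and TNF-α+WBT received the same factor together with 1.0 μg/ml of the herbal preparation WBT for 24 h. The labels call the drug WBP, and this group was taken to be the one the study names TNF-α+WBT.

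Neural crest cells leave the border of the embryonic neural plate and give rise to Schwann cells, melanocytes, peripheral neurons and parts of the facial skeleton. Pax3 and Tfap2a act early, at the border itself, while Foxd3, Snai2, Zeb2, Sox9 and Sox10 specify the crest and allow its cells to migrate. In the Schwann cell lineage Sox10 stays on at every stage, Sox2 and Pax3 mark immature cells, and Pou3f1 (Oct6) acts with Sox10 to switch on Egr2 (Krox20), the main activator of myelin genes.

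All values are FPKM, a level in fragments that is scaled for transcript length and for library depth. Each library was estimated to hold between 16827000 and 26055000 fragments, with group medians of 21589000 in Con, 21069500 in TNF-α and 18309500 in TNF-α+WBT. The stimulus was visible in all 5 NF-κB target genes used as a check, with log2 differences between TNF-α and Con of 4.23 for C3 and 2.88 for Ccl2 (adjusted p = 4.01e-08 and 8.55e-08, limma), 2.12 for Vcam1, 1.70 for Nfkbia and 1.61 for Tnfaip3. The macrophage label was not borne out by its markers. Of 18 macrophage genes, 7 were listed at 0 in all 9 libraries, among them the leukocyte gene Ptprc and the macrophage regulator Spi1, and only Cd14 lay above 1 FPKM in all 9 libraries (mean 5.25). By contrast 9 of 16 Schwann cell markers lay above 1 FPKM in all 9 libraries, and so did 9 of 14 fibroblast markers, led by Sparc (mean 1060). The cultures are therefore called by their labels only.

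The 10 factors spanned a wide range of levels, and 9 of them lay above 1 FPKM in all 9 libraries. Sox10 had the highest mean over the 9 libraries, 91.3 FPKM, above 98.1% of all genes with a value above 0. Foxd3 followed at 85.1 FPKM, and the ranges of both genes overlapped. Next came Zeb2 at 49.2 and Sox2 at 32.9 FPKM, whose ranges overlapped each other but not those of Foxd3 or Pax3. Pax3 (13.6), Tfap2a (13.6) and Snai2 (13.3 FPKM) could not be ordered beyond their spread. Sox9 (8.26) and Pou3f1 (8.04 FPKM) overlapped as well over the 9 libraries, with Sox9 the higher in every Con library and Pou3f1 the higher in every stimulated library. Egr2 was the lowest at 0.651 FPKM and stood clear of the rest.

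**Figure D1:**
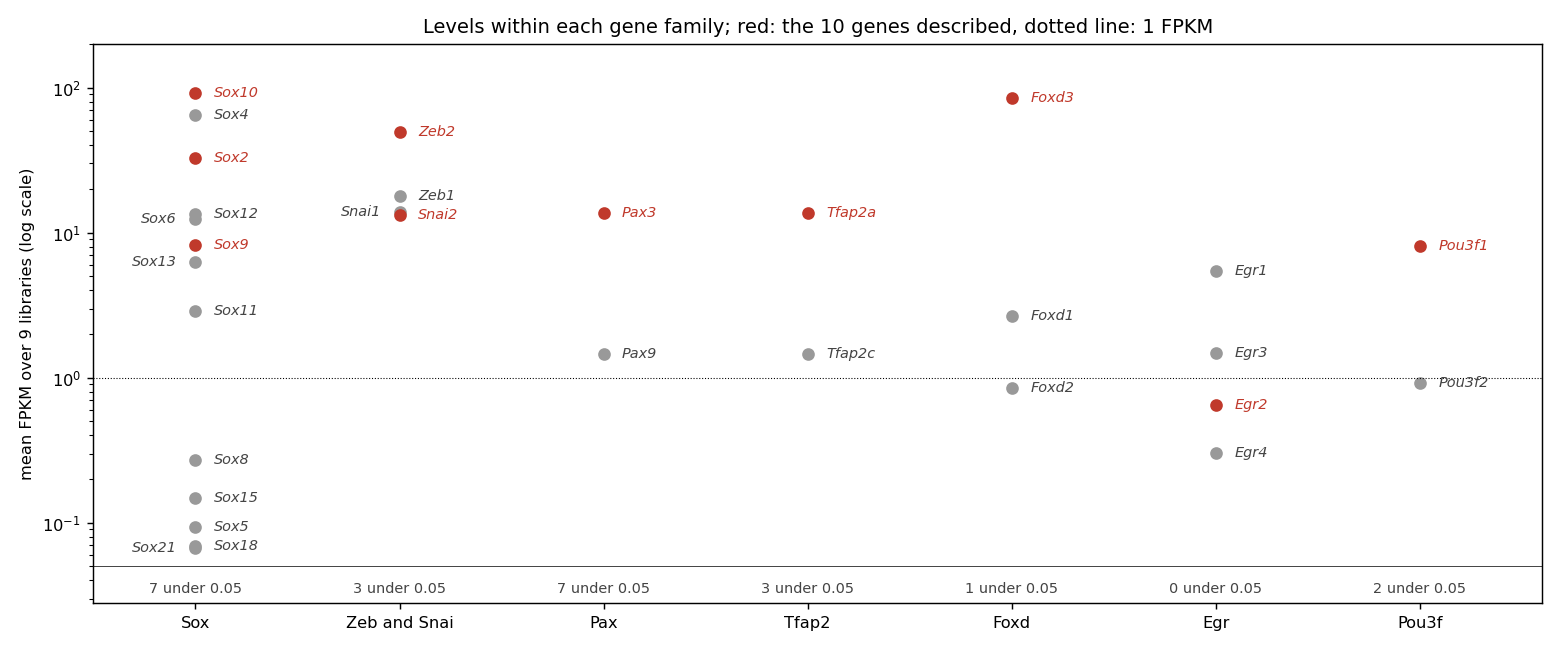
Mean FPKM over the 9 libraries (log axis) for each gene of 7 transcription factor families, with the 10 genes described in red, other family members in grey and the 1 FPKM level as a dotted line. Sox10 (91.3 FPKM), Foxd3 (85.1), Zeb2 (49.2), Pax3 (13.6), Tfap2a (13.6) and Pou3f1 (8.04) lead their families, whereas Egr2 (0.651) lies under Egr1 (5.46) and Egr3 (1.49).

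In 6 of the 7 families a gene described here was the highest member. Sox10 led the 20 Sox genes, of which 8 lay above 1 FPKM in all 9 libraries and 5 were listed at 0 throughout. Its nearest relative by level was Sox4 at 64.4 FPKM, a factor of many progenitor cells. Foxd3 exceeded Foxd1 (2.65) and Foxd2 (0.853 FPKM), Tfap2a exceeded Tfap2c (1.45 FPKM), and Pax3 exceeded Pax9 (1.46 FPKM), the only other Pax gene above 1 FPKM in all 9 libraries. Zeb2 lay above Zeb1 (17.9 FPKM), while Snai2 and Snai1 (13.9 FPKM) had like levels. Pou3f3 and Pou3f4 were listed at 0 in every library and Pou3f2 reached 0.925 FPKM. The Egr family was the exception, since the immediate early gene Egr1 (5.46 FPKM) was its highest member and Egr2 lay beneath both Egr1 and Egr3.

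The comparison of TNF-α with Con asks what the inflammatory factor changed. Pou3f1 rose to 2.0 times its level in Con, and Sox9, Sox2 and Foxd3 fell to 0.612, 0.674 and 0.835 times theirs. The other 6 genes, Sox10 and Egr2 included, did not pass the test. Thus 4 of 10 were called at an adjusted p under 0.05 (1 higher, 3 lower), against 4.86% of the 25417 genes tested (2.94% higher and 1.93% lower) and 8.37% of the 12684 genes whose mean was 1 FPKM or more. The median log2 difference was -0.201 over the 10 genes and 0.00285 over all genes tested. The 3 libraries of each group did not overlap for the same 4 genes, while this held for 21.2% of all genes. The study's own thresholds (fold change over 2, p under 0.05 without adjustment) were applied to the limma values in every comparison, not to the study's own output. They called 0 of the 10 genes here, against 2.42% of all genes, since the log2 difference of Pou3f1, 0.98, lay just under that fold. A two-sided exact permutation test of a single gene cannot go below p = 0.1 with 3 libraries a group, so calls rest on limma's model over all genes. In bulk RNA fewer cells of a type and less RNA per cell cannot be told apart.

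**Figure D2:**
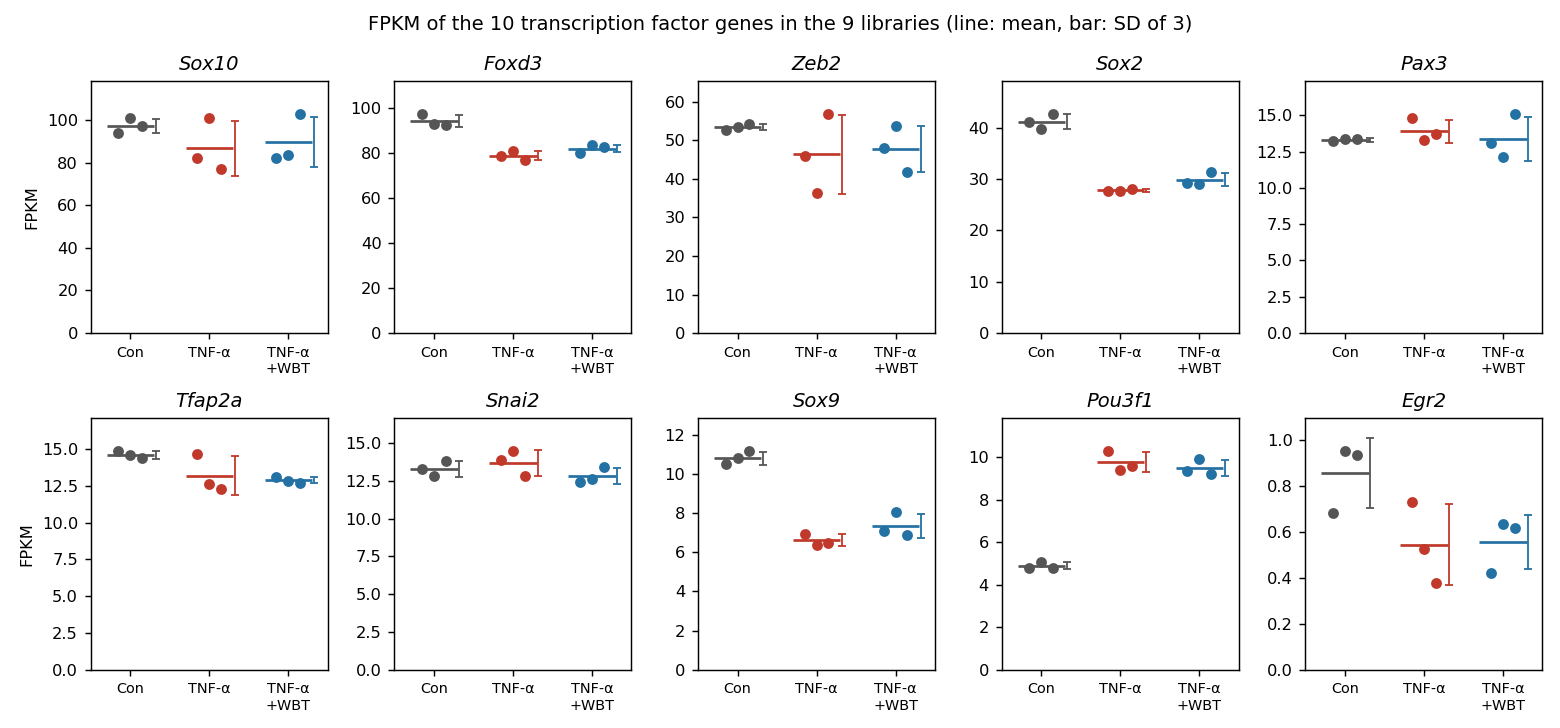
FPKM of each of the 10 genes in every library, with a panel per gene, a point per library, a line at the group mean and a bar of 1 SD (n = 3) on linear axes from 0. The TNF-α and TNF-α+WBT points of Sox2, Sox9 and Foxd3 lie under all Con points and those of Pou3f1 above them, whereas Sox10, Zeb2, Pax3 and Snai2 overlap in all groups.

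Among the factors of the neural plate border, Pax3, a paired-box activator of crest and muscle precursors (ENSMUSG00000004872, GRCm38 chr1:78101267-78197134, minus strand), was measured at 13.2, 13.4 and 13.4 FPKM in Con, 14.8, 13.3 and 13.7 in TNF-α, and 13.1, 12.1 and 15.1 in TNF-α+WBT. The Con libraries were close together and lay inside the spread of TNF-α+WBT. The log2 difference between TNF-α and Con was 0.06 (95% interval -0.12 to 0.24, adjusted p = 0.806, limma).

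Tfap2a, the AP-2α gene (ENSMUSG00000021359, chr13:40715302-40738376, minus strand), read 14.9, 14.6 and 14.4 FPKM in Con, 14.7, 12.6 and 12.3 in TNF-α, and 13.1, 12.8 and 12.7 in TNF-α+WBT. TNF-α replicate 1 sat within the Con range, the other TNF-α libraries and all of TNF-α+WBT beneath it. The log2 difference was -0.15 between TNF-α and Con (-0.30 to 0.01, adjusted p = 0.334) and -0.18 between TNF-α+WBT and Con (adjusted p = 0.241). Without TNF-α replicate 1 the first of these was -0.23 (adjusted p = 0.044, limma).

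Foxd3, a forkhead repressor that keeps crest cells undifferentiated (ENSMUSG00000067261, chr4:99656299-99658622, plus strand, a gene of 1 exon), was at 97.5, 93.2 and 92.6 FPKM in Con, 78.7, 80.9 and 76.9 in TNF-α, and 80.2, 83.5 and 82.7 in TNF-α+WBT. Every stimulated library lay under every Con library, and the stimulated groups overlapped each other. Foxd3 fell by 0.26 on the log2 scale in TNF-α (SE 0.0351, interval -0.34 to -0.18, adjusted p = 0.00352). This was the smallest change among the 4 genes called, and the call was lost when the spread was estimated with no trend on expression level (adjusted p = 0.0643).

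Snai2, or Slug, a zinc finger repressor of cell adhesion genes (ENSMUSG00000022676, chr16:14705852-14709385, plus strand), was at 13.3, 12.8 and 13.8 FPKM in Con, 13.9, 14.5 and 12.8 in TNF-α, and 12.4, 12.6 and 13.4 in TNF-α+WBT. The groups overlapped throughout. The log2 difference between TNF-α and Con was 0.04 (-0.10 to 0.18, adjusted p = 0.813).

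Zeb2, a zinc finger and homeobox repressor used in crest migration and in Schwann cell maturation (ENSMUSG00000026872, chr2:44983632-45117395, minus strand), was at 52.7, 53.5 and 54.3 FPKM in Con, 46.0, 36.4 and 56.9 in TNF-α, and 48.0, 53.7 and 41.7 in TNF-α+WBT. The Con libraries were close together (SD 0.8 FPKM) and lay inside the spread of TNF-α, where the SD was 10.3, while it was 6.03 in TNF-α+WBT. The log2 difference between TNF-α and Con was -0.23 (-0.57 to 0.11, adjusted p = 0.541). In limma-voom on estimated fragments it was -0.28 and passed the threshold (adjusted p = 0.00213), as did TNF-α+WBT against Con (adjusted p = 0.0164). That alternative changed both the measure and the model, so the Zeb2 call depends on the processing.

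Sox9, an HMG-box factor of early crest and cartilage (ENSMUSG00000000567, chr11:112782224-112787760, plus strand), was at 10.5, 10.8 and 11.2 FPKM in Con, 6.95, 6.40 and 6.50 in TNF-α, and 7.09, 8.06 and 6.91 in TNF-α+WBT. All stimulated libraries lay under all Con libraries, and the stimulated groups overlapped. Sox9 fell by 0.70 on the log2 scale in TNF-α (SE 0.0716, interval -0.86 to -0.54, adjusted p = 0.000743).

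Of the factors of the Schwann cell lineage, Sox10, the HMG-box factor of all its stages (ENSMUSG00000033006, chr15:79154908-79165240, minus strand), was at 94.0, 101 and 97.4 FPKM in Con, 82.1, 101 and 77.0 in TNF-α, and 82.3, 83.6 and 103 in TNF-α+WBT. A single library of each stimulated group reached or passed the Con range, TNF-α replicate 2 and TNF-α+WBT replicate 3. The SD was 3.42 in Con, 12.9 in TNF-α and 11.7 in TNF-α+WBT, and the log2 difference between TNF-α and Con was -0.17 (-0.43 to 0.09, adjusted p = 0.538).

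Sox2, an HMG-box factor that holds Schwann cells in the immature state (ENSMUSG00000074637, chr3:34650405-34652461, plus strand, 1 exon), was at 41.2, 39.7 and 42.7 FPKM in Con, 27.6, 27.6 and 28.1 in TNF-α, and 29.3, 29.0 and 31.3 in TNF-α+WBT. The 3 groups did not overlap, with TNF-α lowest and Con highest. Sox2 fell by 0.57 on the log2 scale in TNF-α (SE 0.0434, interval -0.67 to -0.47, adjusted p = 0.000128).

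Pou3f1, a POU-domain factor of the promyelinating stage (ENSMUSG00000090125, chr4:124656807-124660655, plus strand, 1 exon), was at 4.80, 5.07 and 4.77 FPKM in Con, 10.3, 9.40 and 9.59 in TNF-α, and 9.34, 9.89 and 9.19 in TNF-α+WBT. All 6 stimulated libraries lay above all Con libraries. It was the only one of the 10 genes called higher in TNF-α, by a log2 difference of 0.98 (SE 0.0607, interval 0.85 to 1.12, adjusted p = 3.77e-05, limma). The size of this change was exceeded by 3.55% of all genes tested.

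Egr2, the myelin activator downstream of Pou3f1 and Sox10 (ENSMUSG00000037868, chr10:67535475-67542188, plus strand), was at 0.679, 0.952 and 0.933 FPKM in Con, 0.727, 0.523 and 0.376 in TNF-α, and 0.421, 0.633 and 0.615 in TNF-α+WBT. These levels correspond to an estimated 21 to 61 fragments per library. TNF-α replicate 1 lay inside the Con range, and all TNF-α+WBT libraries lay under it. The log2 difference was -0.60 between TNF-α and Con (-1.21 to 0.02, adjusted p = 0.33) and -0.54 between TNF-α+WBT and Con (adjusted p = 0.413), and the pseudocount shrinks both at this level.

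The promoter sequences of Sox2 and Foxd3 are shown because both genes fell in the stimulated cultures and have a single start site in the RefSeq promoter table (GRCm38.p6), which held 5 of the 10 genes. Each line gives the 250 bases before the annotated start, 5′ to 3′ on the plus strand, at chr3:34649745-34649994 for Sox2, whose RefSeq start lies upstream of the GENCODE start given above, and chr4:99656049-99656298 for Foxd3. Capitals mark a SOX motif (ACAAAG) and a POU motif (ATGCAAA).
Sox2: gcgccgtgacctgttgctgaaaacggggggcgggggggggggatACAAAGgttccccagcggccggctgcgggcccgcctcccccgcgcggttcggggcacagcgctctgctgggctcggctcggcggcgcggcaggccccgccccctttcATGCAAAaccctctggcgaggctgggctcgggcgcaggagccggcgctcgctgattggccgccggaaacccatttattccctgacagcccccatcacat
Foxd3: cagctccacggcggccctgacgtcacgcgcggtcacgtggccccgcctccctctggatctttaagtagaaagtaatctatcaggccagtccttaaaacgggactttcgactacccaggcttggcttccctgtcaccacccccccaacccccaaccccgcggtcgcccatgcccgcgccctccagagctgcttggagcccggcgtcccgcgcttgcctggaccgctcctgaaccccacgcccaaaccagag
Both strands were searched for the letters ACAAAG and AACAAT (SOX), ATGCAAA (POU), CACCTG (the E-box read by Snai and Zeb factors), GCCNNNGGC (AP-2), GCGGGGGCG (EGR) and TGANTCA (AP-1). The Sox2 window held ACAAAG starting 206 bases and ATGCAAA starting 99 bases before the start, and the Foxd3 window held none of the 7 motifs. Among 32851 promoter windows of the same length ACAAAG occurred in 16.5% and ATGCAAA in 4.12%, and the other motifs in 2.57% (EGR) to 17.2% (the E-box). These matches describe letters in a window, not sites in use. Sox10, Pax3, Sox9, Snai2 and Pou3f1 had no entry.

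The comparison of TNF-α+WBT with TNF-α asks what the drug changed in stimulated cells. None of the 10 genes passed the test (0 of 10), in a comparison where 0.00393% of genes were called, 1 of 25417 (0.00788% of those averaging 1 FPKM or more). At an unadjusted p under 0.05 limma gave 1 of the 10, Sox2, against 6.31% of all genes. At an adjusted p under 0.05 limma-voom, like limma, called 0 of the 10. The study's thresholds called 0 of the 10 genes here, against 1.12% of all genes. The median log2 difference was 0.0501 over the 10 genes and -0.00195 over all genes. Sox2 was also the only gene of the 10 whose groups did not overlap, against 11.0% of all genes. Its mean was 29.9 ± 1.3 FPKM (SD, n = 3) in TNF-α+WBT and 27.8 ± 0.317 in TNF-α, a log2 difference of 0.10 (interval 0.00 to 0.20, adjusted p = 0.768, limma). Sox9 read 7.35 ± 0.619 FPKM with the drug and 6.62 ± 0.293 without, with a log2 difference of 0.15 (-0.02 to 0.31, adjusted p = 0.816). For Foxd3 the difference was 0.06 (-0.02 to 0.14, adjusted p = 0.842) and for Pou3f1 -0.04 (-0.18 to 0.10, adjusted p = 0.95). The intervals of the 4 genes changed by TNF-α thus lay within 0.31 of zero on the log2 scale. Wider intervals were found for Sox10 (0.05, -0.21 to 0.31), Zeb2 (0.06, -0.28 to 0.40) and Egr2 (0.05, -0.56 to 0.67).

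The comparison of TNF-α+WBT with Con places the drug-treated cultures against untreated cells, and it shares libraries with both other comparisons, so its values stand beside theirs and are not a further test. Pou3f1 rose by a log2 difference of 0.94 (adjusted p = 6.52e-05), against 0.98 in TNF-α alone. Sox9 fell by 0.55 (adjusted p = 0.0035), Sox2 by 0.46 (adjusted p = 0.000572) and Foxd3 by 0.20 on the log2 scale (adjusted p = 0.0161, limma). These 4 of 10 compare with 3.71% of all genes called (2.31% higher and 1.4% lower) and 6.46% of those averaging 1 FPKM or more. The study's thresholds called 0 of the 10, against 2.29% of all genes. The groups did not overlap for 6 of the 10 (1 higher, 5 lower), with Tfap2a and Egr2 added, against 19.5% of all genes. The Foxd3 call was lost without Con replicate 1 (adjusted p = 0.0541), TNF-α+WBT replicate 1 (0.0631) or TNF-α+WBT replicate 3 (0.0521), and with no trend (0.165).

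**Figure D3:**
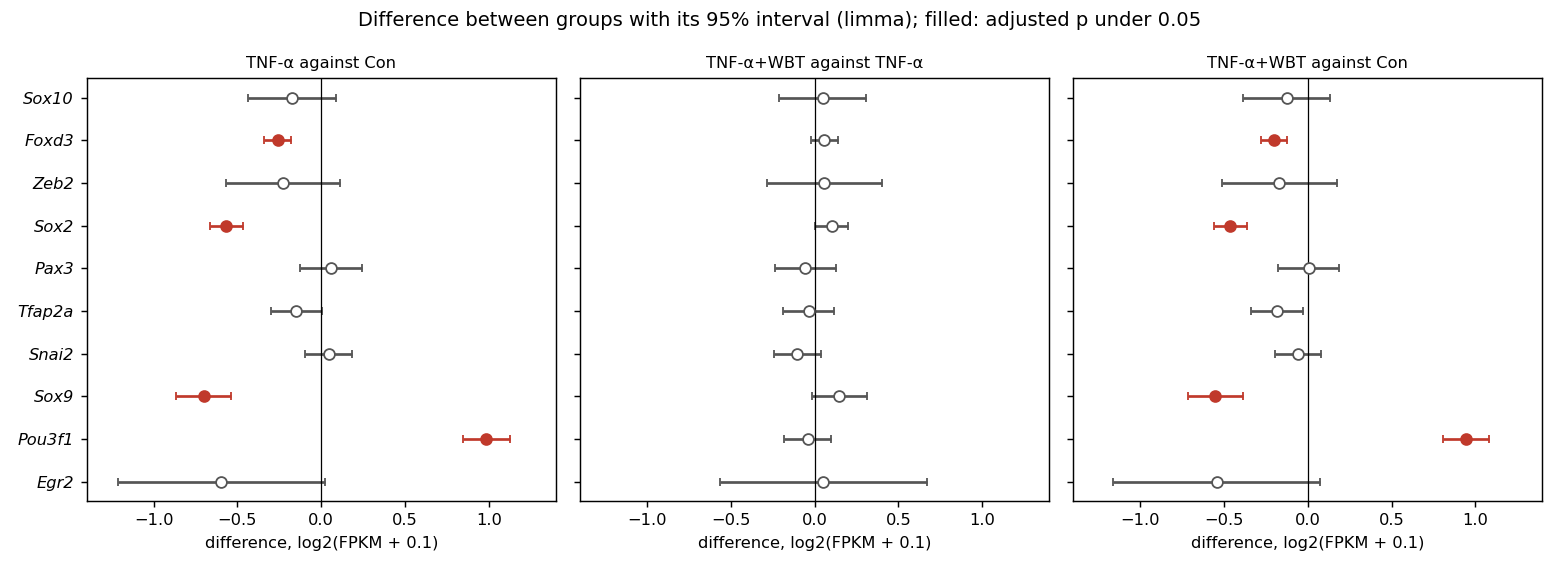
Log2 difference of each of the 10 genes with its 95% interval in the 3 comparisons (limma on log2(FPKM + 0.1), 9 libraries), filled where the adjusted p was under 0.05. Pou3f1 is higher and Sox9, Sox2 and Foxd3 lower in both comparisons with Con, and no gene is filled in TNF-α+WBT against TNF-α.

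Other factors of the same pathways were read from fixed lists. Of 28 further neural crest factors 12 lay above 1 FPKM in all 9 libraries, the highest being the crest and haematopoietic factor Ets1 at 42.5 FPKM. In TNF-α against Con 1 of the 23 tested fell and none rose, no larger a share than the 4.86% called over all genes. It was Id3, an inhibitor of basic helix-loop-helix factors, which fell by 0.58 on the log2 scale (adjusted p = 0.000259). The list's median log2 difference was 0.0862. Meis1, a homeobox cofactor, fell by 0.46 in TNF-α+WBT against Con (adjusted p = 0.0384). It was measured at 3.82, 3.60 and 4.25 FPKM in Con, 4.71, 4.25 and 4.65 in TNF-α, and 2.86, 2.95 and 2.57 in TNF-α+WBT, where its libraries lay under all others, and its log2 difference from TNF-α alone was -0.68 (adjusted p = 0.173, limma).

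Of 24 further Schwann cell factors and cofactors 20 lay above 1 FPKM in all 9 libraries. In TNF-α against Con 7 of 24 fell and 3 rose, against 1.93% of all genes lower and 2.94% higher, and 8.37% called among genes averaging 1 FPKM or more. The list's median log2 difference was -0.0125. Jun, the regulator of the repair Schwann cell, had the largest difference of those averaging 1 FPKM or more. It was at 102, 99.0 and 102 FPKM in Con, 41.3, 40.9 and 38.5 in TNF-α, and 46.9, 49.3 and 44.9 in TNF-α+WBT, and it fell by 1.33 on the log2 scale in TNF-α (adjusted p = 1.18e-06). The receptor Notch1 fell by 1.09 (adjusted p = 0.00236) and Hes1, a repressor switched on by Notch signalling, by 0.77 (adjusted p = 1.84e-05). Both relatives of Egr2 in this list fell as well, Egr3 by 0.90 and Egr1 by 0.66 in TNF-α, and by 1.04 and 0.77 on the log2 scale in TNF-α+WBT against Con (adjusted p = 0.015 and 0.000321). None of the 24 passed the test in TNF-α+WBT against TNF-α.

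The list of genes known to be regulated by Sox10 or Egr2 held 21 genes, of which 10 lay above 1 FPKM in all 9 libraries. In TNF-α against Con 5 of 17 tested fell and none rose, against 1.93% of all genes lower and 8.37% called among genes averaging 1 FPKM or more. The list's median log2 difference was -0.107. S100b, a calcium-binding protein of Schwann cells, was at 6.87, 6.62 and 6.61 FPKM in Con, 2.77, 2.49 and 2.86 in TNF-α, and 3.01, 3.46 and 3.26 in TNF-α+WBT, and fell by 1.28 on the log2 scale in TNF-α (adjusted p = 6.91e-05). The other 4 were the myelin enzyme gene Cnp (fell by 0.85), the neurotrophin receptor gene Ngfr (by 0.80), the adhesion gene Cdh19 (by 0.71) and the neuregulin receptor gene Erbb3 (by 0.28). The compact myelin gene Mbp was at a low level (0.2 FPKM), and Mag was listed at 0 in every library, as was the receptor gene Ret. Markers of Schwann cells as a whole moved with these groups. The summed level of the 16 markers ranged from 781 to 843 FPKM in Con, 641 to 676 in TNF-α and 694 to 711 in TNF-α+WBT. Their part in the changes of Sox2, Sox9, Foxd3 and Pou3f1 was not tested.

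Epithelial genes of the kind that Snai and Zeb factors repress were nearly silent. Of 18 such genes only Cgn, which encodes the tight junction protein cingulin, lay above 1 FPKM in all 9 libraries. It rose from 3.20 FPKM in Con to 8.15 in TNF-α, a log2 difference of 1.33 (adjusted p = 6.66e-05), while the median over the 15 tested was -0.00232. The E-cadherin gene Cdh1 had a mean of 0.0442 FPKM. In the Sox family Sox13, a SoxD factor, fell by 1.47 on the log2 scale (adjusted p = 5.19e-05), beside 0.70 for Sox9 and 0.57 for Sox2. It went from 11.2, 9.83 and 11.4 FPKM in Con to 3.63, 4.05 and 3.78 in TNF-α and 3.79, 4.63 and 4.20 in TNF-α+WBT. In the Pou3f family both genes tested, Pou3f1 and the low Pou3f2 (mean 0.925 FPKM), rose in TNF-α, against 2.94% of all genes called higher. In TNF-α+WBT against Con only Pou3f1 of the 2 was called. No gene of the Zeb and Snai, Tfap2 or Pax families passed the test in any comparison by limma on log2(FPKM + 0.1).

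**Figure D4:**
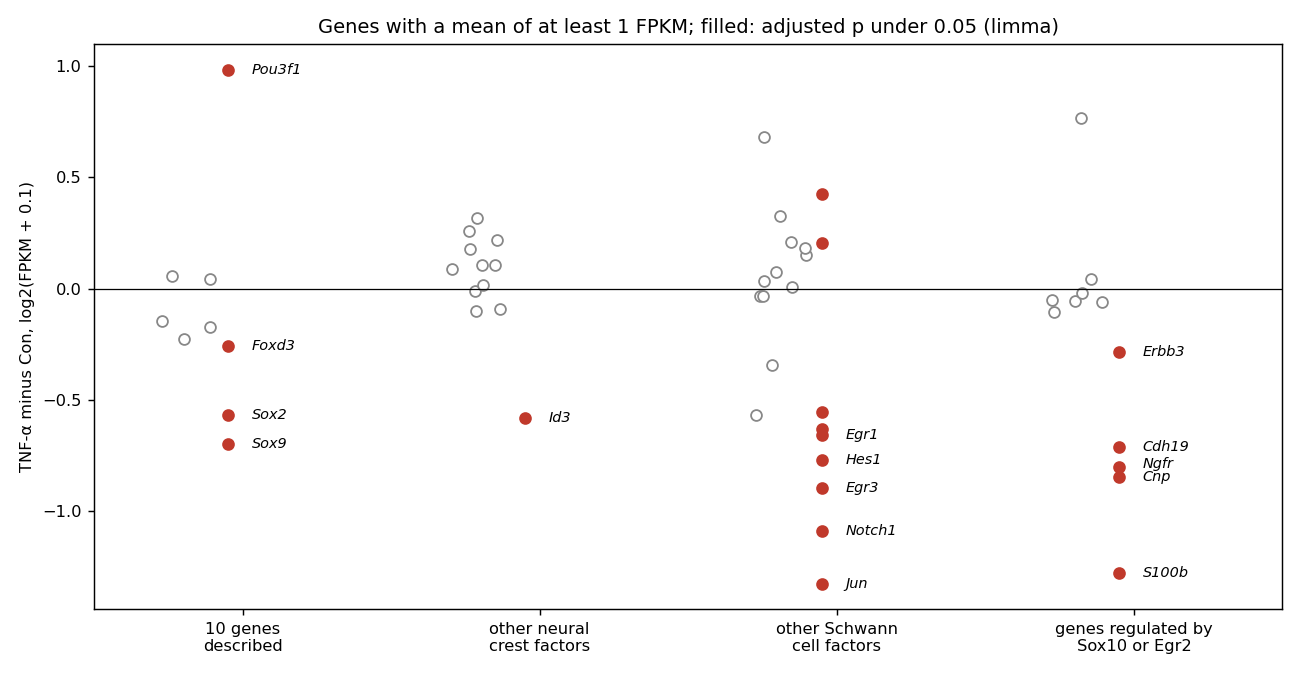
Log2 difference between TNF-α and Con (limma on log2(FPKM + 0.1)) for genes averaging 1 FPKM or more in 4 lists, a point per gene, filled where the adjusted p was under 0.05, with names for at most 5 filled genes a list. Pou3f1 is the only filled point above zero among the 10 genes described, and Jun (-1.33) and S100b (-1.28) are the lowest points.

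Markers of the other crest derivatives and of cell types that could be mixed in were checked as well. Of 9 melanocyte markers only Mitf lay above 1 FPKM in all 9 libraries (mean 1.31), and the pigment enzyme gene Tyr was listed at 0. Fibroblast markers, the most abundant of these lists, changed in both directions. In TNF-α against Con the collagen genes Col1a1 and Col1a2 rose by log2 differences of 0.28 and 0.27 (adjusted p = 0.0173 and 0.0101), and the matrix gene Postn and the receptor gene Pdgfrb fell by 0.59 and 0.52 (adjusted p = 0.000176 and 5.95e-05), with 9 of 13 not called. The sum of the 14 fibroblast markers ranged from 3740 to 3970 FPKM in Con, 4030 to 4110 in TNF-α and 3940 to 4030 in TNF-α+WBT. Of 12 neuron markers 4 lay above 1 FPKM in all 9 libraries, led by Tubb3 (mean 30.7), and the sum of the 12 ranged from 74.3 to 75.8 FPKM in Con, 31.8 to 35.9 in TNF-α and 38.2 to 40.5 in TNF-α+WBT. Most of this was the tubulin gene Tubb3, which averaged 55.3 FPKM in Con and 16.1 in TNF-α (fell by 1.77 on the log2 scale), and the neurofilament genes Nefm and Nefl fell by 1.47 and 1.17, whereas Map2 averaged 8.67, 12.4 and 13.1 FPKM in the 3 groups (log2 difference 0.52 between TNF-α and Con, adjusted p = 0.186). Of 9 chondrocyte markers only Sox6 (mean 12.5) passed this level, of 8 endothelial markers only Egfl7 (mean 1.77), and of 8 stem cell markers 2, led by the progenitor filament gene Nes (mean 79.5). None of 8 myoblast and 8 epithelial markers did (0 of each). The summed macrophage markers ranged from 6.53 to 7.93 FPKM in Con, 8.58 to 9.88 in TNF-α and 8.86 to 10.4 in TNF-α+WBT. The 12 genes used by every cell were all above 1 FPKM, and Actb was the only one called in TNF-α against Con (log2 difference 0.16, adjusted p = 0.0337). The part of these markers in the results was not tested.

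For each gene called in TNF-α against Con, the genes most alike across the 9 libraries were found by Pearson's r on log2(FPKM + 0.1) among 12684 genes. These values only describe likeness, because the group difference that the libraries share sets most of each r. Sox2 was most like Nudt4, Ngfr and Gm45869 (r = 0.994, 0.994 and 0.993), and Ngfr went from a mean of 169 FPKM in Con to 97.0 in TNF-α and 108 in TNF-α+WBT. Sox9 was most like Selenon, Oaf and Vash1 (r = 0.995, 0.992 and 0.989). For Foxd3 they were Slc16a1, Gm15459 and Sdhb (r = 0.987, 0.985 and 0.984). Pou3f1 was most like Rhbdl2, Cxcl1 and Steap4 (r = 0.998, 0.997 and 0.997). The chemokine gene Cxcl1 went from 1.37 ± 0.148 FPKM in Con to 10.4 ± 0.987 in TNF-α and 8.89 ± 0.241 in TNF-α+WBT (SD, n = 3), and the metalloreductase gene Steap4 from 8.27 to 25.5 and 24.4 FPKM.

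The transcript table showed which isoforms carried these values. Foxd3, Sox2, Snai2, Sox9 and Pou3f1 each had a single transcript, so their gene values do not depend on how fragments were divided between isoforms. Sox10 was carried by Sox10-203, which made up 95.2% of the gene value over the 9 libraries. In TNF-α replicate 2 and TNF-α+WBT replicate 1 Sox10-201 read 8.11 and 7.15 FPKM, against 0.361 to 2.87 elsewhere. Egr2-201 made up 95.8% of Egr2.

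Isoform shares of Pax3, Tfap2a and Zeb2 varied between libraries of a group. Tfap2a-202 made up 52.5% of Tfap2a (33.4 to 62.4%) and Tfap2a-201 28.2% (19.1 to 45.4%). Within Con alone these shares ranged from 40.8 to 60.7% and from 19.1 to 41.1%. Pax3-202 made up 52.9% of Pax3 on average but ranged from 16.5 to 82.1%, with its lowest levels in TNF-α replicate 1 (2.79 FPKM) and TNF-α+WBT replicate 3 (2.49 FPKM), the libraries where Pax3-201 was at 10.9 and 11.8 FPKM. Zeb2 had 29 annotated transcripts, and Zeb2-203 carried 59.0% of its value (33.5 to 70.8%). Zeb2-221 was listed at 0 in 7 libraries but at 22.6 FPKM in TNF-α replicate 3 and 22.9 FPKM in TNF-α+WBT replicate 2. Those were the libraries with the highest Zeb2 value of their groups, 56.9 and 53.7 FPKM. Zeb2-201 was at 8.22, 8.48 and 6.40 FPKM in Con and at no more than 0.00919 FPKM in TNF-α, whereas Zeb2-202 was at 6.45, 9.81 and 6.82 FPKM in TNF-α and at 0.285, 0.22 and 3.06 in Con. In TNF-α+WBT Zeb2-201 read 6.65 FPKM in replicate 1 and at most 0.00298 in the other two, and Zeb2-202 at most 0.546. How fragments were assigned to such overlapping isoforms was not tested, and no test was made on them.

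**Figure D5:**
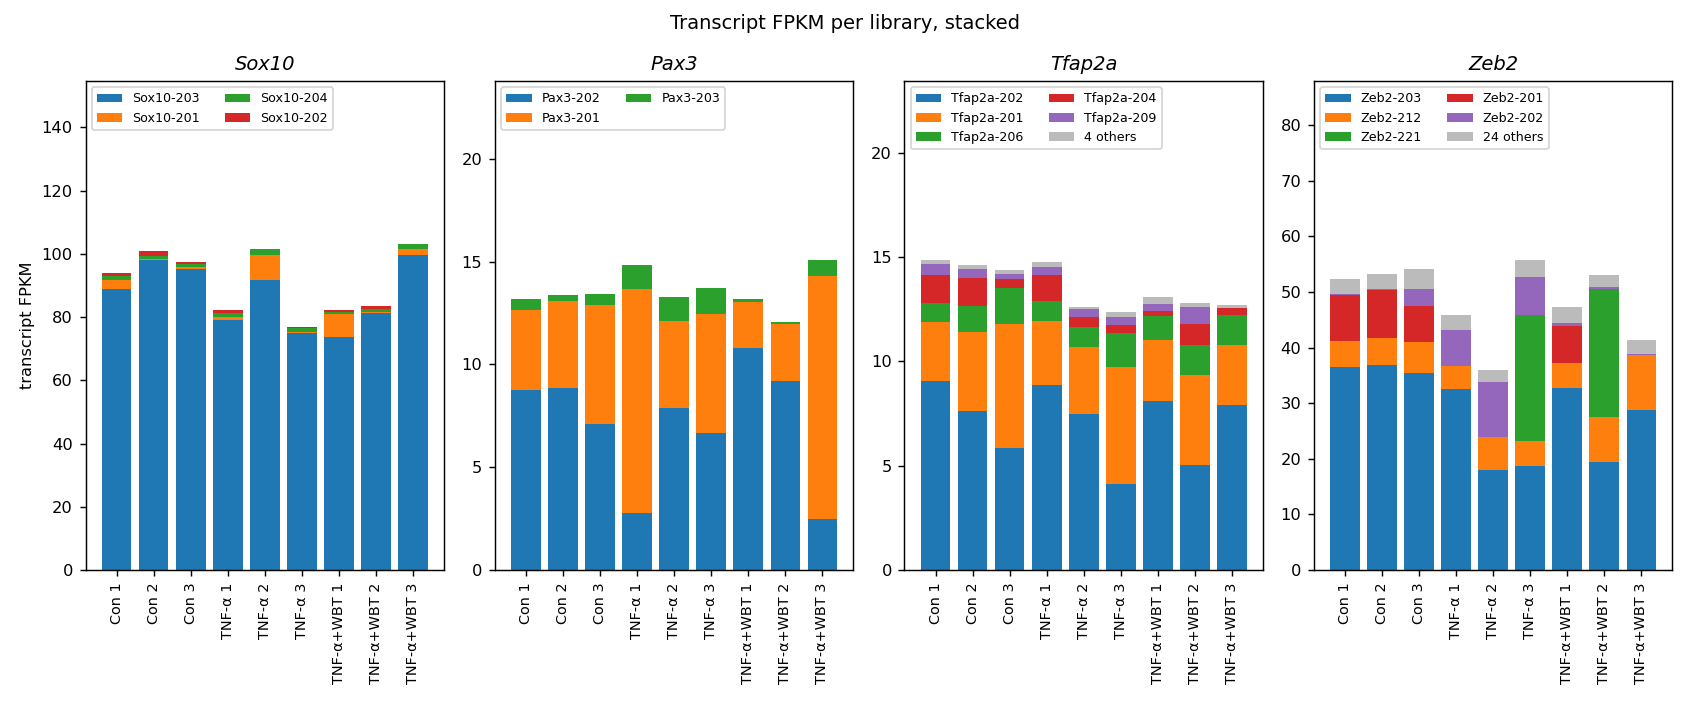
Transcript FPKM stacked for each library in Sox10, Pax3, Tfap2a and Zeb2, a bar per library and a colour per transcript, on linear axes from 0. Sox10-203 fills nearly all of Sox10, Pax3-201 and Pax3-202 exchange shares in TNF-α replicate 1 and TNF-α+WBT replicate 3, and Zeb2-221 appears in only 2 of the 9 libraries.

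Some of these genes overlap others, and the library kit as described marks no strand, so reads of antisense partners cannot be told apart from theirs. The partners were low beside the genes described. At Zeb2 the small RNA gene Gm27761 lies on the opposite strand, shares 4 exonic bases and averaged 0.706 FPKM in Con, 2.2 in TNF-α and 2.36 in TNF-α+WBT. Zeb2os, which shares 653 exonic bases with Zeb2, averaged 1.21 FPKM in Con, 0.925 in TNF-α and 1.46 in TNF-α+WBT. Gm2164, antisense to Pou3f1 over 330 exonic bases, averaged 0.17, 0.248 and 0.233 FPKM. The 3 antisense genes at Tfap2a averaged at most 0.664 FPKM in any group, and Sox2ot, which holds Sox2 without sharing exonic bases, at most 0.279 FPKM. Gm23366, a microRNA gene on the strand of Foxd3 that shares 89 exonic bases with it, averaged at most 0.0763 FPKM.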

How the data were processed

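Paired-end libraries of poly-A RNA were sequenced from 9 cultures, 3 each of Con, TNF-α and TNF-α+WBT, which the study describes as biological replicates. The authors deposited FPKM per gene and per transcript, and their workflow names HISAT2, StringTie and Ballgown. Versions, genome build and annotation are not given in the sources used here. Every column was mapped to a library by its name (0 were left over), and no library repeated the values of another.

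Symbols and positions came from GENCODE M21 (GRCm38), matched by gene ID (98.0% of genes had a symbol). Genes above 0 FPKM in at least 3 libraries, 25417 of 56289 and all 10 described, were tested on log2(FPKM + 0.1) with limma 3.58.1 in R 4.3.3 (lmFit, eBayes with a trend), in 1 model over all 9 libraries. Genes were called at a Benjamini-Hochberg adjusted p under 0.05 over all genes tested. Fold changes on this scale understate those of low genes. The script was tested on simulated data.

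FPKM are not counts. Depth was estimated from the step of 1 fragment in 10706 genes of a single transcript over 1000 bases. Only 55.8 to 60.4% of low values came out within 0.1 of a whole number, against 20% by chance, so estimated fragments served as a description and in 1 alternative, limma-voom. They carry no interval beyond counting error.

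The 10 genes were described in full. From other lists, genes with an adjusted p under 0.05 in any comparison and a mean of at least 1 FPKM were named, at most 5 by size, with each family's highest gene and the 3 genes most alike per called gene. Egr3 and Egr1 count under both lists that hold them. Other family and marker genes named beside these were chosen after their values were seen. Some listed genes are not reported here. The genes and lists were chosen with earlier results of these data known. Alternatives covered the pseudocount, filters, trend, groups fitted, normalization, transcript sums, the replicate number and each library left out. Promoter sequences came from RefSeq (GRCm38.p6). Python 3.11.15, pandas 2.3.3, numpy 2.4.6 and matplotlib 3.10.9 were used.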

Additional observations from a re-analysis of the deposited data

How the results depend on the processing

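Counts of the 10 genes called stayed between 3 and 5 in TNF-α against Con and in TNF-α+WBT against Con, and at 0 in TNF-α+WBT against TNF-α, under every alternative run. Of 597 values of single genes, 573 kept their direction and side of the threshold, 6 lost a call (all Foxd3), 3 gained one (Tfap2a and Zeb2) and 15 reversed, all of them uncalled. In TNF-α against Con, Pax3 was -0.0017 with limma-voom. In TNF-α+WBT against Con, Pax3 was -0.0005987 with median centring, -0.004755 with quantile normalization and -0.0227 with limma-voom, and it ranged from -0.0814 to 0.0773 with each library left out. In TNF-α+WBT against TNF-α the ranges with each library left out crossed zero for Tfap2a (-0.0831 to 0.0443), Zeb2 (-0.11 to 0.22), Sox10 (-0.0565 to 0.165), Egr2 (-0.15 to 0.25) and Pax3 (-0.14 to 0.0187). Over all genes, calls in TNF-α+WBT against TNF-α ran from 0 to 11 (main 1), and those in TNF-α+WBT against Con fell from 942 to 588 without Con replicate 3. The cause was not tested. Groups share replicate numbers by label only: deviations of same-numbered libraries correlated at -0.0674 to 0.0953 and of other libraries at -0.105 to 0.0966. With the replicate number as a block 4, 0 and 3 of the 10 genes were called in TNF-α against Con, TNF-α+WBT against TNF-α and TNF-α+WBT against Con, with Foxd3 lost in TNF-α+WBT against Con (adjusted p = 0.0516), and calls over all genes in TNF-α against Con went from 1236 to 893. With 3 libraries a group, precision limits Egr2, Sox10 and Zeb2 most.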
